A study of Rattus norvegicus with 9 samples.

Results

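The Fos and Jun families supply the core subunits of the transcription factor AP-1. Their members in the deposited table were the 7 entries whose gene name was Fos, Fosb, Fosl1, Fosl2, Jun, Junb or Jund, out of 32623 entries in all, and they comprised 4 Fos genes and 3 Jun genes. All 7 passed the filter on low counts. The cells were wild-type primary cortical neurons from Wistar rat embryos of embryonic day 16 to 18, grown on conductive indium tin oxide glass. The design had 3 groups of 3 libraries. Control neurons received no current. Neurons under direct current stimulation (DCS, labelled DES) and neurons under alternating current stimulation (ACS) received 3 µA for 20 min a day over 7 days, and the labels give 20 Hz for both, although the paper states the frequency for ACS alone. By their labels the neurons were at day 7 in vitro, although the growth protocol runs to day 14. The time from the last session to RNA extraction is not given in the sources used here. No source says whether replicate libraries stem from different cultures, and the p-values therefore cover the spread among the libraries alone, which may be technical. Embryos per culture are likewise not given.

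AP-1 is a dimer of basic leucine zipper (bZIP) proteins. Jun proteins pair with each other or with Fos proteins, whereas Fos proteins need a Jun or another bZIP partner to bind DNA. In neurons Fos, Fosb and Junb are among the immediate early genes. These are transcribed within minutes of synaptic activity and calcium entry without new protein synthesis, and their messages are short-lived. Jun and Jund are present at rest, and Jun protein is activated by the c-Jun N-terminal kinases (JNK).

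Total counts ranged from 53910745 to 68690760 in control, from 52370330 to 68133858 in DCS and from 49039412 to 52938628 in ACS, so the ACS libraries were the shallowest on the whole. Neuronal markers were present in every library, with the summed level of 12 of 12 listed genes at 4271 to 4741 CPM (counts scaled to library size) in control, 4386 to 4475 in DCS and 4399 to 4571 in ACS. Markers of other cells were present too. The summed astrocyte markers (8 of 8) lay at 847 to 919 CPM in control, 816 to 854 in DCS and 662 to 996 in ACS. Microglial markers (8 of 8) lay at 198 to 205, 208 to 211 and 201 to 209 CPM, oligodendrocyte markers (8 of 8) at 557 to 627, 560 to 613 and 563 to 602 CPM, and fibroblast markers (7 of 8) at 143 to 149, 131 to 163 and 134 to 140 CPM. Endothelial markers (7 of 8) stayed between 1.61 and 3.84 CPM, with Emcn at 0 throughout. The summed progenitor markers (8 of 8) were lower in every ACS library (821 to 901 CPM) than in every control (946 to 998 CPM) or DCS library (906 to 949 CPM). Not all 8 fell, as 3 had a log2 fold change above 0 in ACS against control, Pax6 (0.05), Sox2 (0.05) and Eomes (0.24), none of them called. Single markers called in ACS against control were Rbfox3 (log2 fold change 0.43), Gfap (0.25) and C1qa (0.76), which were higher, and Mki67 (-0.22), Vim (-0.19) and Hes5 (-1.54), which were lower. The part of these cells in the AP-1 results was not tested, and in whole-culture RNA fewer cells of a type cannot be told apart from less RNA per cell.

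Under ACS, 5 of the 7 genes were higher than in control and none was lower. They were Fos, Fosb, Jun, Junb and Jund, with fold changes between 1.51 and 5.58. Over all 16284 genes tested, 2.83% were called higher and 1.33% lower in this comparison, a call being an adjusted p under 0.05 in edgeR's quasi-likelihood test. The libraries of the same 5 genes did not overlap between ACS and control, which held for 14.0% of all genes tested in the upward direction. Fosl1 and Fosl2 missed the threshold. The median log2 fold change was 0.74 over the 7 genes and -0.003 over all genes tested.

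**Figure D1:**
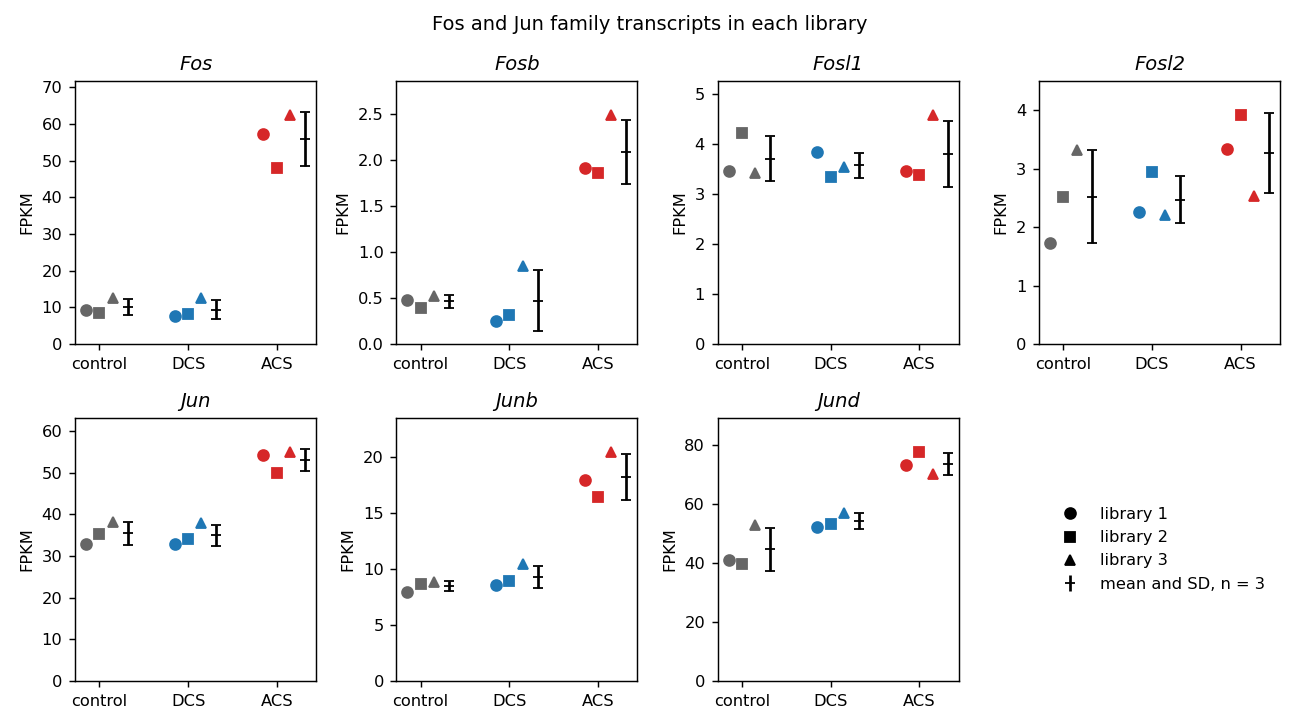
Level of each Fos and Jun gene in FPKM, by group, with a point for each library and a bar for the mean of 3 libraries. The ACS points of Fos, Fosb, Jun, Junb and Jund all lie above the control points, while those of Fosl1 and Fosl2 overlap with control.

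Fos, which encodes the classic activity-induced subunit c-Fos, showed the largest response of the 7 genes. The gene (ENSRNOG00000008015) lies on chromosome 6 at 109300433 to 109303299, plus strand. Here and for the other genes, positions are those of the table, which names no genome build. Its level was 9.18, 8.55 and 12.6 FPKM (fragments scaled to transcript length and library size) in the control libraries and 57.2, 47.9 and 62.3 FPKM in the ACS libraries. Each ACS library was several times above the highest control library. The log2 fold change was 2.48 ± 0.20 (SE), a 5.58-fold difference with a 95% interval from 4.07 to 7.63 and an adjusted p of 0.000361. By this fold change Fos ranked 41 among the 16284 genes tested. Its mean level stood at percentile 56.0 of all genes tested in control and at percentile 91.1 under ACS.

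Fosb encodes FosB and, by splicing, the shorter and long-lived ΔFosB. It was the scarcest member (ENSRNOG00000046667, chromosome 1, 80214494 to 80221710, minus strand). Its 2 annotated transcripts were not separated in the table. Control libraries held 0.482, 0.389 and 0.521 FPKM, and ACS libraries held 1.91, 1.85 and 2.48 FPKM. All ACS libraries were above all control libraries. The difference was 2.17 ± 0.40 on the log2 scale, or 4.5-fold with an interval from 2.43 to 8.33 (adjusted p = 0.0194). The counts behind these values were 101 to 130 in control and 353 to 510 in ACS. Low counts in the table piled up at multiples of 4, which made up 34.1% of the counts from 1 to 15 where an even spread gives 20%, so the fragments behind a count may be about 4 times fewer. The Fosb call was lost when control 1 (adjusted p = 0.0837), control 2 (0.0978), ACS 1 (0.0607), ACS 2 (0.0587) or ACS 3 (0.0565) was left out, with the log2 fold change between 2.02 and 2.25 over all 9 such fits.

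Fosl1 and Fosl2 encode Fra-1 and Fra-2, Fos proteins that lack the strong activation domain of c-Fos and FosB. Fosl1 (ENSRNOG00000020552, chromosome 1, 220826560 to 220835066, plus strand) was measured at 3.47, 4.23 and 3.43 FPKM in control and 3.47, 3.39 and 4.58 FPKM in ACS. The groups overlapped. Its log2 fold change was 0.05 with an interval from -0.30 to 0.41 (adjusted p = 0.88). Fosl2 (ENSRNOG00000052357, chromosome 6, 25598936 to 25616995, minus strand) was measured at 1.73, 2.51 and 3.32 FPKM in control and 3.34, 3.91 and 2.54 FPKM in ACS. These groups overlapped as well, and the interval of the log2 difference (0.39) ran from -0.21 to 0.99 (adjusted p = 0.451). Fosl2 rested on 74 to 168 counts per library, and its control libraries alone spanned a 1.92-fold range.

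Junb encodes a Jun protein that is induced rapidly by activity and that binds DNA with Fos partners. Its gene (ENSRNOG00000042838, chromosome 19, 26092974 to 26094756, minus strand) was at 7.93, 8.68 and 8.80 FPKM in control and at 17.9, 16.4 and 20.4 FPKM in ACS. The groups were far apart relative to the spread within each. The log2 fold change was 1.12 ± 0.10, or 2.18-fold with an interval from 1.86 to 2.54 (adjusted p = 0.000687). This was the largest response among the Jun genes.

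Jun, the founding member of its family, and Jund, the member most abundant at rest here, started from high levels and changed by less. Jun (ENSRNOG00000026293, chromosome 5, 114011189 to 114014277, minus strand) was at 32.8, 35.3 and 38.3 FPKM in control and at 54.2, 49.9 and 55.0 FPKM in ACS. Every ACS library exceeded every control library, and the log2 fold change was 0.60 ± 0.07, a 1.51-fold difference with an interval from 1.36 to 1.68 (adjusted p = 0.00223). Jund (ENSRNOG00000019568, chromosome 16, 20485029 to 20486707, minus strand) was at 41.0, 39.8 and 53.0 FPKM in control and at 73.2, 77.6 and 70.2 FPKM in ACS. Control 3 was the high library of its group, still below each ACS library. The log2 fold change was 0.74 ± 0.09, a 1.67-fold difference with an interval from 1.44 to 1.93 (adjusted p = 0.00369). The calls of Fos, Jun, Junb and Jund each held in all 9 fits that left out 1 library.

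**Figure D2:**
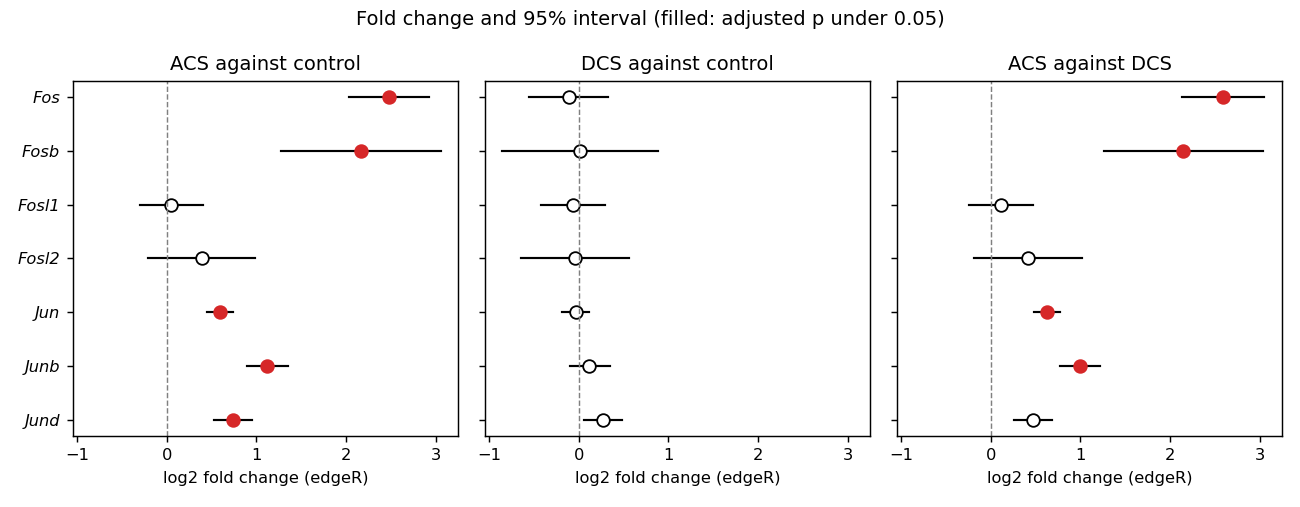
Log2 fold change of each Fos and Jun gene in the 3 comparisons, with its 95% interval from the edgeR fit over all 9 libraries and a vertical line at 0. In ACS against control, Fos (2.48) and Fosb (2.17) lie farthest to the right and Fosl1 (0.05) sits at 0, while in DCS against control every point lies between -0.11 and 0.27.

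Promoter sequences are shown for 3 of the genes that rose, Junb, Jund and Fosb, because motifs known to bind factors of the calcium and AP-1 pathways could be looked for in them. RefSeq promoters of the assembly GRCr8, from 250 bases before to 50 bases after the annotated start, were at hand for 5 of the 7 genes. Fos and Jun had no entry. Coordinates are those of GRCr8 and cannot be set beside the positions above. Each sequence is written 5′ to 3′ along the gene, with capitals for the cAMP response element TGACGTCA, its core TGACG, the TATA box TATAAA and the CCAAT box CCAAT on either strand. The Junb window lies at chr19:40080876-40081175 (plus strand), the Jund window at chr16:18769722-18770021 (minus strand) and the Fosb window at chr1:88089135-88089434 (minus strand).
Junb: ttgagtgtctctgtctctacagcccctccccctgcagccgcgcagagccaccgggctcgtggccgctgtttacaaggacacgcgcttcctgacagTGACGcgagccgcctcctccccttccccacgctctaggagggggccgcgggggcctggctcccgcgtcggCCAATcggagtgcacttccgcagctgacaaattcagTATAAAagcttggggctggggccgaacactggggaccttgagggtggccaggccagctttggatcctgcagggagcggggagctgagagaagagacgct
Jund: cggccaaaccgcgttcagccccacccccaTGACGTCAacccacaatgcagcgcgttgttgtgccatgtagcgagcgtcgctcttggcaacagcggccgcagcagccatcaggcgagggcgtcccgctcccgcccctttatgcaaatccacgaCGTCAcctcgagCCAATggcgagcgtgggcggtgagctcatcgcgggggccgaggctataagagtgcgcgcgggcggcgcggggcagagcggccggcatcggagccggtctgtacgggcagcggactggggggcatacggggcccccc
Fosb: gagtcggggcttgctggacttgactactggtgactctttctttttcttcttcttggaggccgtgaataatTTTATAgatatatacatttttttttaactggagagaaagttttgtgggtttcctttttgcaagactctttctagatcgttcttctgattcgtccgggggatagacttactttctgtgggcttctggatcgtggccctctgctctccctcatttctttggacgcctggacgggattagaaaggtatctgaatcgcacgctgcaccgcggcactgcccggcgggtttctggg

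The Jund window held the full element TGACGTCA at -221 to -214 relative to the start, a palindrome that contains the core on both strands. This element was found in 1.83% of 33469 promoters of the same length. A further core was present on the reverse strand of Jund at -98 to -94, and a CCAAT box at -86 to -82. Junb carried a core TGACG at -155 to -151, a CCAAT box at -85 to -81 and a TATA box at -49 to -44. Fosb held none of these on the given strand and a TATAAA on the reverse strand at -180 to -175. The core occurred in the windows of Jund, of Junb and of Fosl1, a gene that missed the threshold, and in 21.2% of all promoters, while CCAAT occurred in 37.5% and TATAAA in 14.2%. The AP-1 site TGACTCA (4.63% of promoters), the AP-1-like site TGACATCA (4.34%) and the CArG box, the binding motif of serum response factor (1.64%), matched none of the 5 windows on either strand. The windows of Jund and Junb were rich in G and C, at 69.7% and 65.3%, against 47.7% in Fosb and a median of 51.7% over all promoters. Those of Fosl1 (62.3%) and Fosl2 (70.7%), genes that missed the threshold, were rich in G and C as well. These matches describe letters in a window and say nothing on binding.

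DCS moved none of the 7 genes past the threshold, where edgeR called 0.0123% of all genes tested, a total of 2. DESeq2 called none of the 7 either, and 0.212% of the genes it tested. At an unadjusted p under 0.05 edgeR counted 1 of the 7, Jund, against 7.09% of all genes. No gene of the 7 had DCS libraries wholly above or wholly below the control libraries, as 5.59% and 5.51% of all genes had. Fos was at 7.64, 8.11 and 12.5 FPKM under DCS, and the lower pair of these lay just below the control range. Its log2 difference from control was -0.11 with an interval from -0.55 to 0.33, which excludes a difference of the size seen under ACS. Jun, at 33.0, 34.0 and 37.9 FPKM, lay within its control range (log2 difference -0.03, interval from -0.18 to 0.12). Junb, at 8.55, 8.91 and 10.4 FPKM, overlapped with control, and its interval ran from -0.10 to 0.35.

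Jund, the JunD gene, was at 52.2, 53.3 and 57.1 FPKM under DCS. All 3 lay above control 1 and control 2, and DCS 1 fell just below control 3, so the groups overlapped. The log2 difference was 0.27 with an interval from 0.06 to 0.48, an unadjusted p of 0.0162 and an adjusted p of 0.692. Without control 3 it was 0.41 with an adjusted p of 0.0332, in a fit that called 47 genes in all. Fosb was uneven within DCS, at 0.249, 0.319 and 0.851 FPKM, a 3.41-fold range on 51, 72 and 226 counts. Its log2 difference from control was 0.02 with an interval from -0.85 to 0.89, and -0.70 without DCS 3 (adjusted p = 0.329), so the data left a wide margin for this gene. Fosl1 (3.84, 3.34 and 3.55 FPKM) and Fosl2 (2.26, 2.94 and 2.21 FPKM) overlapped with control.

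When the kinds of current were compared directly, with the same ACS libraries as above, 4 of the 7 genes were higher under ACS than under DCS, where 0.51% of all genes tested were called higher. These were Fos, Fosb, Jun and Junb. The libraries did not overlap for 5 of the 7, as was so for 11.2% of all genes. Fos was 6.02-fold higher (log2 2.59 ± 0.20, interval from 2.13 to 3.05, adjusted p = 0.000822). Junb was 2.0-fold higher (log2 1.00, interval from 0.77 to 1.22, adjusted p = 0.00393), and Jun differed by 0.63 on the log2 scale (interval from 0.48 to 0.77, adjusted p = 0.00456). Fosb differed by 2.15 (interval from 1.26 to 3.04), with an adjusted p of 0.04997, barely inside the threshold. This Fosb call survived 1 of the 9 fits without a library, the one without DCS 3, in which the difference was 2.87 (adjusted p = 0.00322), and the adjusted p reached 0.176 in the others. Jund differed by 0.47 with an interval from 0.26 to 0.68 and libraries that did not overlap, but with an adjusted p of 0.0677. It passed without control 3 (adjusted p = 0.0055). Fosl1 (0.12, interval from -0.24 to 0.47) and Fosl2 (0.42, interval from -0.18 to 1.02) missed the threshold.

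**Figure D3:**
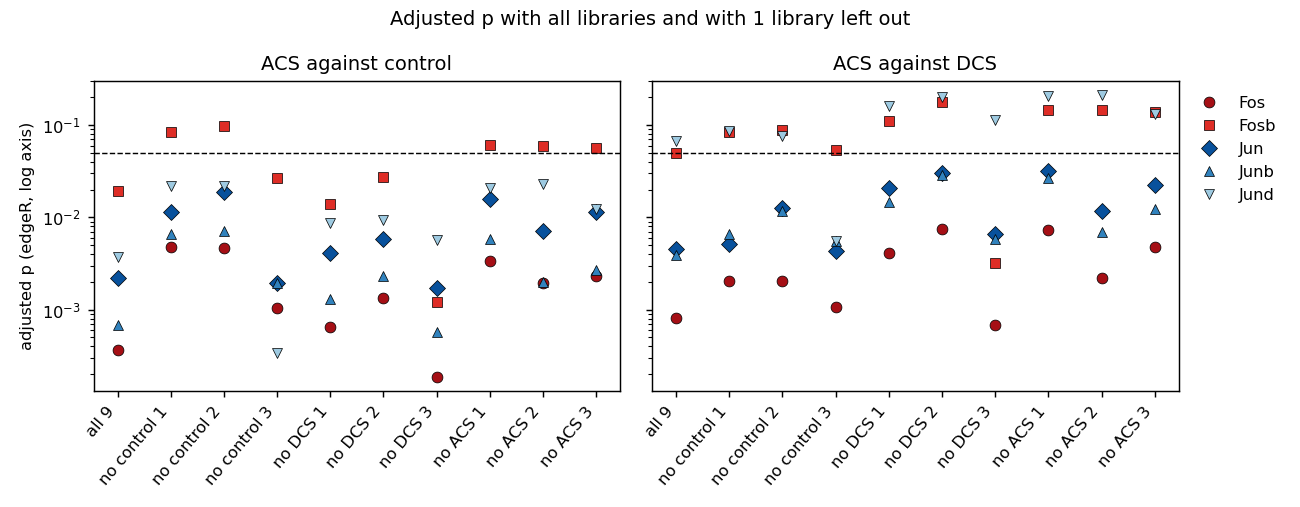
Adjusted p of Fos, Fosb, Jun, Junb and Jund in ACS against control and in ACS against DCS, on a log axis with a line at 0.05. Points are given for all 9 libraries and for each library left out in turn. In ACS against control, Fos is under 0.05 in all 9 fits without a library and Fosb in 4 of 9. Their log2 fold changes in these fits, not drawn, were 2.37 to 2.66 and 2.02 to 2.25.

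The makeup of the summed Fos and Jun transcripts differed between the groups. Levels can be set side by side in FPKM, which is per length. The order in control was Jund, Jun, Fos, Junb, Fosl1, Fosl2 and Fosb. Of the neighbours in this order only Fos and Junb overlapped, with Fos higher in 2 of 3 libraries. The order of the means in DCS was the same, with Fos and Junb again overlapping and Fos higher in 1 of 3 libraries. Under ACS, Fos (55.8 ± 7.28 FPKM, SD, n = 3) reached the level of Jun (53.1 ± 2.74), and these genes overlapped, as did Fosl1 (3.81 ± 0.664) and Fosl2 (3.27 ± 0.687). Jund stayed on top at 73.7 ± 3.74 FPKM, and Fosb stayed last at 2.08 ± 0.348 FPKM.

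The summed level of the 7 genes was 96.6, 99.5 and 120 FPKM in control, 108, 111 and 125 FPKM in DCS and 211, 201 and 218 FPKM in ACS. The ACS sums were the highest in every library, at 1.99 times the control mean. The 4 Fos genes together rose from 16.8 ± 2.7 FPKM in control to 65.0 ± 7.45 under ACS, and the 3 Jun genes from 81.8 to 100 FPKM in the control libraries to 144 to 146 FPKM in the ACS libraries. The Fos genes thus made up 15.4, 15.8 and 16.6% of the summed FPKM in control, 13.0, 13.3 and 15.3% in DCS and 31.2, 28.4 and 33.0% in ACS. No ACS library overlapped with control or DCS in this share. The exact permutation test gave p = 0.1 (two-sided, 3 against 3) for ACS against either group, which is the smallest p this design allows, and 0.159 after Benjamini-Hochberg adjustment over the 51 such tests computed. The DCS libraries also lay below control in this share, by -2.04 points, with the same exact permutation p of 0.1 (0.159 adjusted). The test therefore cannot rank these differences by size. On counts the DCS difference from control was -1.3 points and the groups overlapped.

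Within the Fos family, Fos itself accounted for 59.9% ± 4.74 of the summed FPKM in control, 58.4% ± 6.05 in DCS and 85.8% ± 1.58 in ACS. The ratio of Fos to Jun in FPKM was 0.284 ± 0.044 in control, 0.266 ± 0.0547 in DCS and 1.05 ± 0.086 in ACS. Junb rose relative to Jun, from a ratio of 0.239 ± 0.00815 to 0.343 ± 0.0244, without overlap, while its share of all 7 genes overlapped between the groups (8.09% ± 0.703 and 8.67% ± 0.642). The shares of Jun (33.8% to 25.3%) and Jund (42.2% to 35.2%) were lower under ACS although both genes rose. DCS libraries also differed from control in some of these measures without overlap. The share of Jund was higher (47.4% ± 1.39) and that of Jun lower (30.6% ± 0.125), and the ratios to Jun were higher for Jund (1.55 ± 0.0393 against 1.25 ± 0.13 in control) and for Junb (0.265 ± 0.00816). Each of these contrasts stood at the exact permutation p of 0.1 or above.

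**Figure D4:**
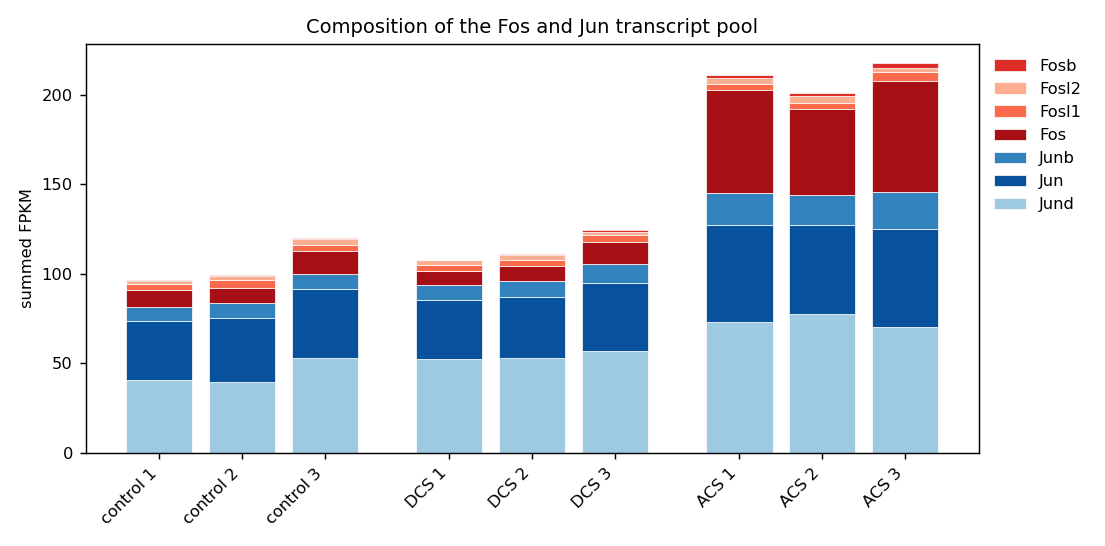
Composition of the summed FPKM of the 7 Fos and Jun genes in each of the 9 libraries, as stacked bars with the axis from 0. The bars reach 96.6 to 125 FPKM in control and DCS and 201 to 218 FPKM in ACS, where the Fos segment is much wider.

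Variation within the groups was shared among several of the genes. In each of the 3 groups, the library with the highest Fos was also the one with the highest Fosb, Jun and Junb in FPKM, and it was the library numbered 3 each time. What that number stands for is not given in the sources used here. Jund followed in control and DCS, but under ACS it was lowest in library 3, and Fosl1 and Fosl2 did not follow in all groups. Over all 9 libraries, Pearson's r of log2 CPM between Fos and Jun was 0.993, with 0.981 for Junb, 0.968 for Fosb, 0.879 for Jund, 0.552 for Fosl2 and 0.224 for Fosl1. These values describe 9 points that share their groups and libraries, and most of the spread lies between ACS and the rest. Among 13924 other named genes, those most like Fos were Egr1 (r = 0.9907), an activity-induced zinc finger factor, the neuronal early factor Npas4 (0.9902) and Fnbp4 (0.989). Egr1 was at 45.9 ± 8.99 CPM in control, 39.1 ± 7.1 in DCS and 208 ± 23.7 in ACS. Most like Jun were Egr1 (0.9943), the early nuclear receptor gene Nr4a1 (0.9902) and Npas4 (0.986). Junb was followed by Dusp6 (0.9913), a MAP kinase phosphatase gene, Nr4a1 (0.988) and Pabpn1 (0.988). Fosb was followed most closely by the MAP kinase phosphatases Dusp1 (0.975) and Dusp6 (0.969) and by Tacc2 (0.967), whose own difference under ACS was small (log2 0.11, adjusted p = 0.105).

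No entry of the table overlaps one of the 7 genes. Of all 16284 genes tested, 678 were called in ACS against control, and among the 14 nearest tested neighbours, 1026 to 502612 bases away, 1 was called. This was Hook2, 12082 bases from Junb on the opposite strand, at 0.59 on the log2 scale (adjusted p = 0.0117), named here after its value was seen. The closer neighbour of Junb, Prdx2 at 2880 bases, was at -0.13 (adjusted p = 0.172), and Rtn2, at 6046 bases from Fosb, was at 0.05 (adjusted p = 0.514). In the gene annotation of the table, the term for the cellular response to calcium ion was attached to 70 tested genes and to 5 of the 7, namely Fos, Fosb, Jun, Junb and Jund. Terms for the responses to cAMP (38 tested genes), to a drug (297) and to a mechanical stimulus (67) were also attached to 5 of the 7, with Fosl1 in place of Junb. All 7 carried the pathway of osteoclast differentiation, in which AP-1 takes part, along with other genes to a total of 112.

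Among 76 tested genes in 5 lists tied to AP-1, edgeR called 3 in ACS against control, and 678 of all 16284 genes tested. An unadjusted p under 0.05 was held by 20 of the 76, against 20.8% of all genes. DESeq2 called 8 genes of these lists and 1640 genes in all. Of 13 bZIP genes whose proteins pair with Fos or Jun, 12 were tested (Batf2 was filtered out) and none was called in ACS against control, while 5 had an unadjusted p under 0.05, as 20.8% of all genes tested did, and DESeq2 called 1 lower, Mafk. Their median log2 fold change was 0.03. Atf2, which pairs with Jun, was at -0.05 (adjusted p = 0.532), and Atf4, a stress-response factor, was at 0.09 (adjusted p = 0.364). Other partners, named after their values were seen, lay farther from 0 in both directions without passing the edgeR test. Atf3 was at 0.61 (adjusted p = 0.128) with every ACS library above control, Mafk at -0.32 (adjusted p = 0.0548) with every ACS library below control, and Batf at -0.78 (adjusted p = 0.176) with overlap.

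Of 14 genes of the JNK branch, which phosphorylates Jun, 1 was called higher and none lower, beside 2.83% and 1.33% of all genes. Their median was 0.09, and 3 had an unadjusted p under 0.05, as 20.8% of all genes tested did. DESeq2 called Mapk8ip3 and Map2k7 higher. The gene called was Mapk8ip3, a scaffold that carries JNK cargo along axons, at 257 ± 16.8 CPM in control and 309 ± 6.97 in ACS (log2 0.27 ± 0.06, adjusted p = 0.0318). It passed in 3 of the 9 fits without a library, with an adjusted p of up to 0.131. Mapk8ip1, a related scaffold, was at 0.09 (adjusted p = 0.377). Of 16 genes of the ERK branch, which acts on Fos transcription through Elk1 and serum response factor, 1 was higher and none lower, with a median of 0.02 and 2 genes at an unadjusted p under 0.05, and DESeq2 also called 1. This was Elk1 itself, at 58.0 ± 0.578 CPM in control and 69.7 ± 1.67 in ACS (log2 0.26 ± 0.04, adjusted p = 0.0118). It passed in 5 of the 9 fits without a library.

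None of 7 genes for the turnover of AP-1 proteins was called (1 at an unadjusted p under 0.05, 0 with DESeq2), and the median was -0.03. Nedd4, a ubiquitin ligase, was at -0.03 (adjusted p = 0.666). Of 30 textbook AP-1 targets, 27 were tested, since Mmp1, Gal and Sprr1a were filtered out. None was called higher and 1 was called lower, beside 2.83% and 1.33% of all genes tested. An unadjusted p under 0.05 was held by 9 of the 27, against 20.8% of all genes, and their median was -0.07. DESeq2 called Npy and Plau higher and Ccnd1 and Mmp13 lower. The gene that fell was Mmp3, a matrix metalloproteinase, from 1.69 ± 0.578 CPM in control to 0.331 ± 0.129 in ACS (log2 -2.34 ± 0.46, adjusted p = 0.0261). Mmp3 was scarce and passed in 5 of the 9 fits without a library. DESeq2 gave it no adjusted p in ACS against control and called it lower in ACS against DCS. Mmp13, a related gene, was at -1.66 (adjusted p = 0.0574). Gria2, a glutamate receptor subunit gene that ΔFosB is known to regulate, was at 0.01 (adjusted p = 0.914). Of the 76 tested genes in these 5 lists, edgeR called none in DCS against control. There 2 had an unadjusted p under 0.05, against 7.09% of all genes tested, and DESeq2 called 0, against 0.212% of the genes it tested. In ACS against DCS edgeR called none as well, with 18 at an unadjusted p under 0.05, against 13.9% of all genes. Of these 18, 10 were among the 27 tested AP-1 targets. DESeq2 called 4 in that comparison, Mafk, Ccnd1, Mmp3 and Vgf, all lower, where it called 624 genes in all.

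**Figure D5:**
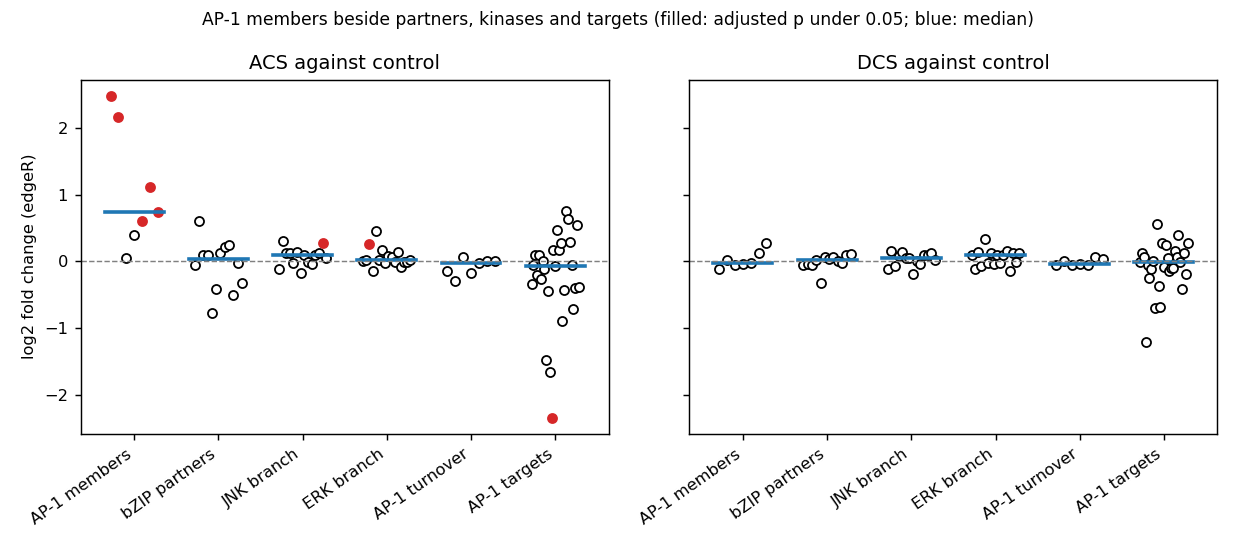
Log2 fold change in ACS against control of the tested genes in the Fos and Jun families and in 5 lists of related genes, with a point for each gene, filled where the adjusted p is under 0.05, and a bar at the median. The median of the Fos and Jun genes is 0.74, and the medians of the other lists lie between -0.07 and 0.09.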

How the data were processed

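RNA was measured by sequencing of polyadenylated fragments (paired reads, adapters with molecular identifiers) in 9 libraries. According to the submitters' processing notes, the tools were cutadapt 1.9, HISAT2 2.0.4, UMI-tools and StringTie 1.3.4d, while the paper names fastp for trimming. For the rat genome the paper writes GRCh38, and no build is named in the table. The deposited FPKM values and the estimated count beside each were made by the authors with StringTie, with 0.0001 written for an FPKM of 0. Zeros in every library affected 10920 entries.

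Estimated counts, whole as deposited, were tested with edgeR 4.0.16 (R 4.3.3): TMM scaling, filterByExpr (at least 10 counts, at least 15 in total; 16284 genes kept, 16339 removed), and the quasi-likelihood F test in 1 fit over the 3 groups, with Benjamini-Hochberg adjustment over all genes tested. The common biological coefficient of variation was 0.218, with 6 residual and 3.83 prior degrees of freedom. The fit was tested on simulated data. Members and lists were chosen with earlier results of these data known, and the pathway lists come from textbook knowledge. Named genes are the 7 members, up to 4 called genes of each list (filled to 2 by highest FPKM) and the 3 named genes most like Fos, Fosb, Junb and Jun; some genes that this rule takes are not reported here. Shares of summed FPKM were compared by exact permutation tests in scipy 1.17.1. Alternatives were DESeq2 1.42.0, limma 3.58.1 on log2(FPKM + 0.1) or log2(FPKM + 1), other scalings and filters, counts divided by 4, the 6 libraries of a comparison alone, a replicate block and each library left out. Promoters came from RefSeq (GRCr8).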

Additional observations from a re-analysis of the deposited data

How the results depend on the processing

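The calls of Fos, Jun and Junb held under all 19 alternatives in ACS against control and in ACS against DCS, and that of Jund held under all 19 in ACS against control. Fosb held under 14 of 19 and 8 of 19, and Jund in ACS against DCS passed under 3 of 19. Leaving out 1 library gave 4 to 5 genes of the 7 called in ACS against control, 0 to 1 in DCS against control and 3 to 4 in ACS against DCS. Genes of the 5 lists called in these comparisons numbered 0 to 10, 0 to 0 and 0 to 2, and the Fos family share differed by 13.9 to 16.2, -2.78 to -1.6 and 15.9 to 18.3 points. The 3 list genes called in ACS against control became 8 with DESeq2 and 5 with counts divided by 4, and the 0 in ACS against DCS became 4 with DESeq2, 1 at a mean FPKM of at least 1 and 1 with counts divided by 4. The Fos family share in ACS against DCS was 14.5 points on counts in place of 17.0.

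In DCS against control, signs near 0 turned. Fosb was at -0.11 and -0.01 with limma (FPKM + 0.1 and FPKM + 1), at 0.0 with counts thinned to the smallest library, which was added once the data had been seen, and at -0.13 in the fit with the replicate number as a block, and Fosl2 was at 0.01 with limma (FPKM + 0.1). The block changed no call of the 7 genes in the 3 comparisons, and over all genes it called 475, 1 and 59 in place of 678, 2 and 103. Same-numbered libraries deviated with correlations of -0.053 to 0.063 over all genes tested, and each library matched its own number best between DCS and ACS alone. These low values cover all genes together, and whether the numbers pair the libraries for the 7 genes was not tested. Without 1 library, Fos ranged from -0.36 to 0.07, Fosb from -0.70 to 0.32, Fosl1 from -0.12 to 0.05, Fosl2 from -0.24 to 0.20 and Jun from -0.09 to 0.02, and Fosl1 ranged from -0.10 to 0.16 in ACS against control and from -0.04 to 0.20 in ACS against DCS. With limma on FPKM + 1 the Fosb difference of ACS from control was 1.07 in place of 2.17, since the added 1 exceeds its level in control. The cause of the other changes was not tested. Over all genes, ACS against control called 138 to 1431 without 1 library and 475 to 1640 under the other settings, DCS against control 1 to 47 and 1 to 36, and ACS against DCS 27 to 184 and 59 to 624. With counts divided by 4, Fosb (adjusted p = 0.0108) and Fosl2 (0.423) stayed on their sides of the threshold in ACS against control.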
